A study of Mus musculus with 2 samples.

Results

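The 45 genes described here code for the main proteins of transforming growth factor beta (TGF-beta) and bone morphogenetic protein (BMP) signalling. They were taken by gene symbol from the pathway, out of 43346 mouse genes in the tables, and all 45 were found. By role they are 13 ligand genes, 11 receptor genes, 8 Smad genes, 4 genes of latency proteins, 7 genes of antagonists and 2 target genes. Total RNA of newborn lung was sequenced in 2 pups of the mouse strain B6NCrl at an age of 0 days, and each library came from the 2 lungs of 1 pup. The libraries are called pup 1 and pup 3 after the pup numbers in the labels. They form 1 group, with no treatment, no genetic change and no other age, and the labels give both pups the same pregnancy number and the same donor identifier. Only the pup numbers and the biological replicate numbers in the labels set the libraries apart, and sex was not recorded. Each standard deviation (SD, n = 2) measures only the spread between these libraries.

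In this pathway a secreted dimer binds a type II receptor, which activates a type I receptor, and the active pair phosphorylates Smad proteins that enter the nucleus with Smad4. TGF-beta is secreted in a latent complex tied to the matrix by latency proteins, whereas BMPs are held in check mainly by secreted antagonists. In the developing lung BMP4 acts at the growing epithelial tips, and TGF-beta signalling shapes the mesenchyme, elastic fibres and alveolar walls.

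Pup 1 had 42189536 and pup 3 had 37026165 expected counts over all genes. A count of 0 allows up to 3 counts, or 0.0711 counts per 1000000 (CPM) in pup 1 and 0.0810 CPM in pup 3. Levels are as TPM (transcripts per 1000000), a value per length as the authors deposited it. All 4 epithelial markers of lung that were checked (Sftpc, Nkx2-1, Ager and Scgb1a1) were present, with summed levels of 103756 TPM in pup 1 and 95987 TPM in pup 3. Since the tissue was sequenced in bulk, fewer cells of a type and less RNA per cell cannot be told apart.

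Most of the 45 genes were expressed in lung at birth. Of them, 42 (93.3%) reached 1 TPM in both pups, against 12942 of 21474 protein-coding genes (60.3%). The 45 genes were chosen with earlier results of these data known, so these shares are no test of the pathway. Of 64 further genes of the pathway, described below, 37 reached 1 TPM in both pups. The median level of the 45 genes was 12.6 TPM. Only 4 of them exceeded 100 TPM in both pups, namely the target genes Id3 and Id1, the follistatin-like gene Fstl1 and the endothelial receptor gene Acvrl1. Together these 4 held 61.8% of the 1652 TPM summed over the 45 genes in pup 1 and 60.5% of their 1690 TPM in pup 3. A further 22 genes lay between 10 and 100 TPM in both pups.

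**Figure D1:**
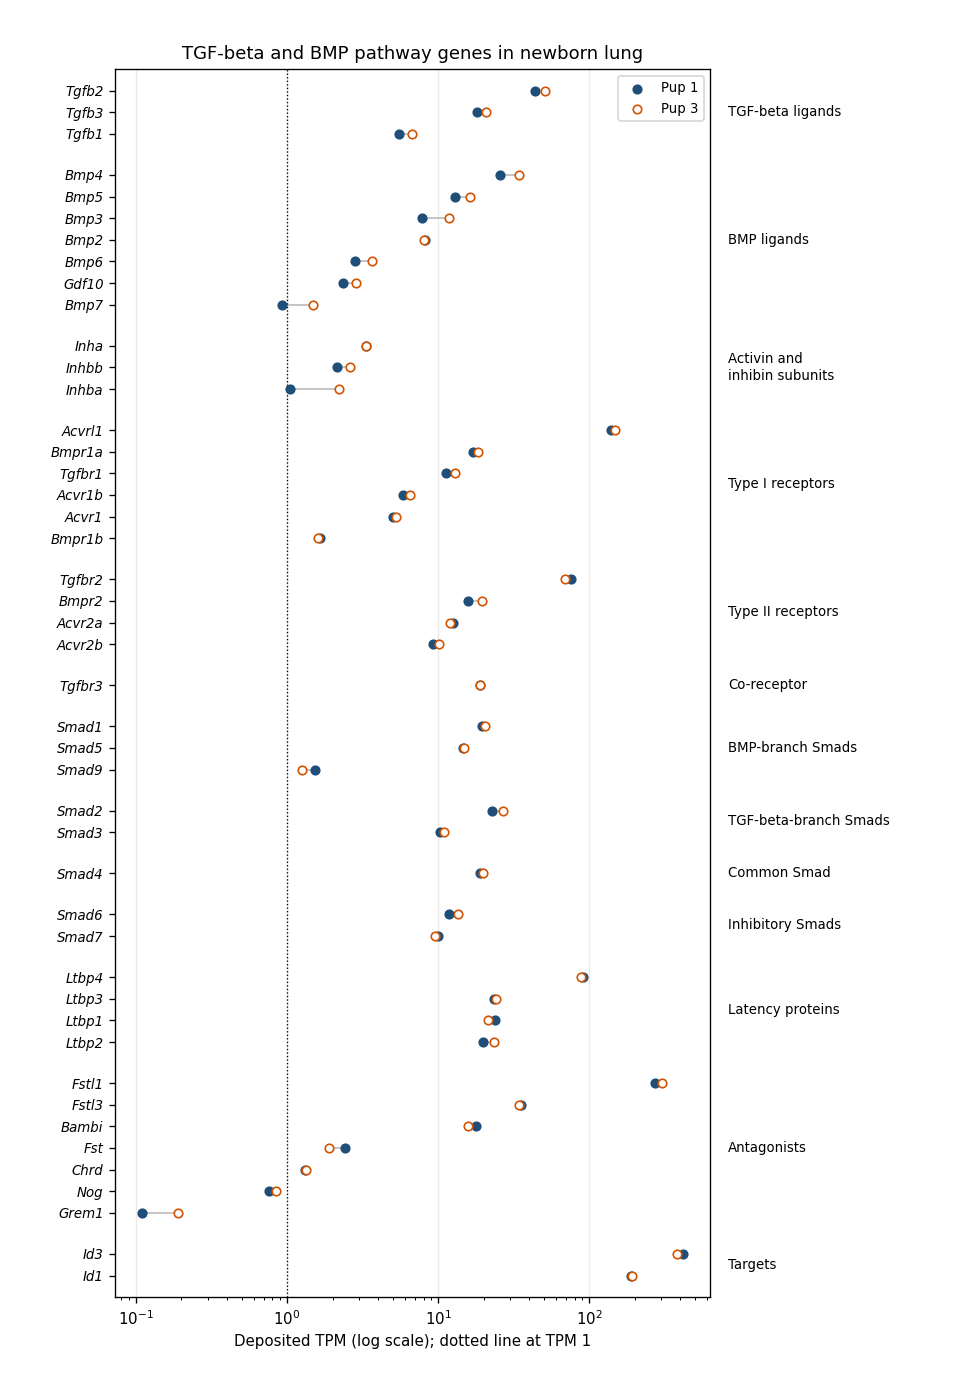
Deposited TPM of each of the 45 genes on a log axis, with 1 row per gene, filled points for pup 1, open points for pup 3 and the roles named at the right. Only Grem1 and Nog lie below the dotted line at 1 TPM in both pups, and Id3, Fstl1, Id1 and Acvrl1 lie above 100 TPM.

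Tgfb2 was the highest ligand gene by deposited TPM, followed by Bmp4. Tgfb2 (chromosome 1, 186622792 to 186705989, minus strand), a ligand needed for heart, lung and skeletal development in mice, had 43.6 TPM in pup 1 and 51.0 TPM in pup 3. Tgfb3, which acts in palate fusion and lung maturation, had 18.1 TPM in pup 1 and 20.8 TPM in pup 3. Tgfb1, best known for its role in immune tolerance and fibrosis, had 5.49 TPM in pup 1 and 6.73 TPM in pup 3. The order Tgfb2, Tgfb3, Tgfb1 held in both pups with no overlap between neighbours, and Tgfb2 stood 2.40 times above Tgfb3 in pup 1 and 2.46 times in pup 3.

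That lead of Tgfb2 rested on transcript models that are not annotated as protein-coding. The largest share of its abundance was assigned to Tgfb2-205, a retained-intron model, with 41.5% in pup 1 and 34.2% in pup 3. Models without a protein-coding annotation together held 58.6% of the gene's TPM but 18.6% of its counts in pup 1, and 54.3% of its TPM but 15.4% of its counts in pup 3, because they are short and TPM divides by length. Summed over protein-coding models alone, Tgfb2 had 18.0 TPM in pup 1 and 23.3 TPM in pup 3, or 0.994 and 1.12 times the level of Tgfb3 in those pups. On that sum Bmp4 was the highest ligand, with 21.8 TPM in pup 1 and 29.7 TPM in pup 3. This split by annotation was chosen after the values had been seen.

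**Figure D2:**
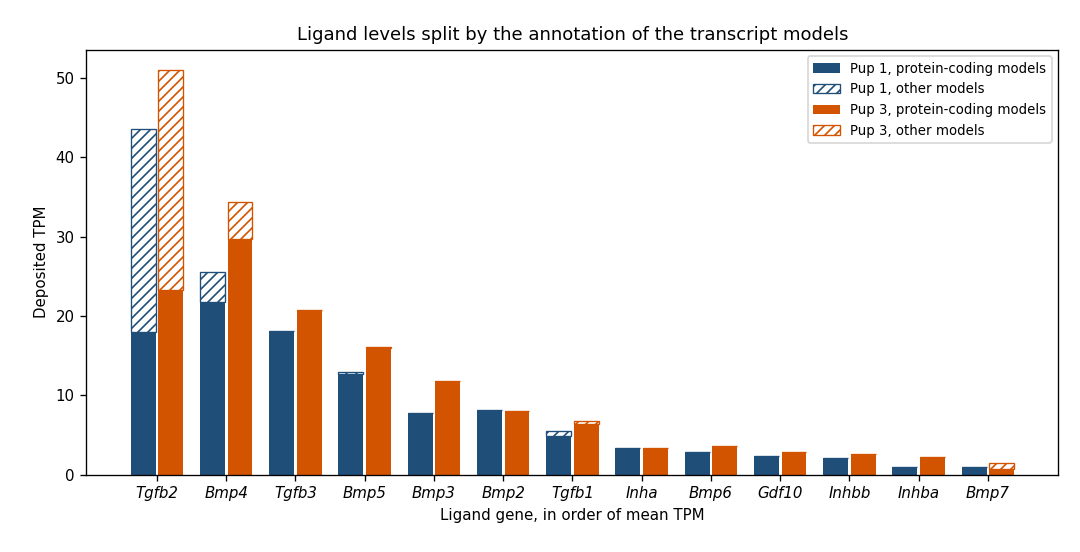
Deposited TPM of the 13 ligand genes in pup 1 (left bar of each pair) and pup 3 (right bar), split into transcript models annotated as protein-coding (solid) and all other models (hatched). Other models hold more than the protein-coding ones in Tgfb2 in both pups, which places the solid bars of Bmp4 above those of Tgfb2.

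Tgfb2 has 2 protein-coding models, and a coding exon held by 1 of them is shown because both models had counts in both pups. Tgfb2-206 carries it as exon 2 of 8 and Tgfb2-201 lacks it. The exon has 84 bases, or 28 codons, at chr1:186690721-186690804 on the minus strand (GRCm38, which is mm10, in GENCODE M21), and it reads 5′ to 3′ as follows.
Tgfb2 exon: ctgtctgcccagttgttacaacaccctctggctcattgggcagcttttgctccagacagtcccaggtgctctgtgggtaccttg
Of the abundance of these 2 models, the form with the exon took 31.9% in pup 1 and 30.7% in pup 3. These shares belong to the models as a whole, which have other start sites and lengths of 3485 bases with the exon and 5116 bases without it, so they are no direct measure of exon use.

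Among BMP-type ligands the gene of BMP4, which patterns lung buds, led with 25.5 TPM in pup 1 and 34.4 TPM in pup 3. Bmp5, a ligand expressed in lung mesenchyme, had 12.9 TPM in pup 1 and 16.1 TPM in pup 3. Bmp3, an unusual member that counteracts other BMPs, had 7.80 TPM in pup 1 and 11.9 TPM in pup 3. Bmp4 was the highest of the 7 in both pups and stood 1.97 times above Bmp5 in pup 1 and 2.13 times in pup 3, whereas the ranges of Bmp3 and Bmp2 overlapped.

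Bmp2 had 8.21 TPM in pup 1 and 8.07 TPM in pup 3, and Bmp6, a regulator of iron balance in liver, had 2.82 and 3.64 TPM in those pups. Gdf10, a relative of Bmp3, had 2.34 TPM in pup 1 and 2.87 TPM in pup 3, and its range overlapped that of Bmp6. Bmp7, needed for kidney and eye formation, was listed at 0.93 TPM in pup 1 and 1.49 TPM in pup 3, although its counts ran the other way, at 107 in pup 1 and 94 in pup 3. In pup 3 the short retained-intron model Bmp7-202 took 17.2 of the 94 counts and 47.6% of the TPM, whereas it took none in pup 1. The protein-coding model of Bmp7 alone stood at 0.93 TPM in pup 1 and 0.78 TPM in pup 3.

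The subunits of activin and inhibin, dimers that signal through the Smads of the TGF-beta branch or block that signal, were low. Inha, the inhibin alpha subunit, had 3.33 TPM in pup 1 and 3.31 TPM in pup 3. Inhbb, the activin beta B subunit, had 2.14 TPM in pup 1 and 2.59 TPM in pup 3. Inhba, the activin beta A subunit, had 1.04 TPM in pup 1 and 2.22 TPM in pup 3. Inha was highest in both pups, while the ranges of Inhbb and Inhba overlapped.

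Taken as means of log2(TPM + 1) over genes, the 7 BMP-type ligands lay below the 3 TGF-beta ligands by 1.36 in pup 1 and 1.28 in pup 3, a mean difference of -1.32 ± 0.057 (SD, n = 2). The sums were close, at 60.5 TPM for BMP-type against 67.2 TPM for TGF-beta ligands in pup 1, and both at 78.5 TPM in pup 3. Differences between roles carry no p-value, since an exact sign-flip test over 2 pups cannot go below a 2-sided p of 0.5.

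Receptor levels were led by 1 gene of each type. Acvrl1 (chromosome 15, 101128522 to 101145336), which codes for ALK1, the type I receptor of endothelial cells for BMP9 and BMP10, had 138 TPM in pup 1 and 147 TPM in pup 3. Bmpr1a, a widely expressed type I receptor for BMPs, had 17.0 TPM in pup 1 and 18.3 TPM in pup 3. Tgfbr1, the main type I receptor for TGF-beta, had 11.2 TPM in pup 1 and 12.9 TPM in pup 3. Acvrl1 thus stood 12.3 times above Tgfbr1 in pup 1 and 11.4 times in pup 3, and it made up 77.2% of type I receptor TPM in pup 1 and 76.8% in pup 3.

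The other type I receptor genes were Acvr1b and Acvr1, which code for an activin receptor and a BMP receptor, and Bmpr1b, known for its role in cartilage. Acvr1b had 5.84 TPM in pup 1 and 6.53 TPM in pup 3, and Acvr1 had 5.06 and 5.27 TPM in those pups. Bmpr1b had 1.64 TPM in pup 1 and 1.61 TPM in pup 3, which placed it below Bmpr1a by 10.4 times in pup 1 and 11.3 times in pup 3. No neighbouring type I receptors overlapped in range. BMP9 and BMP10, the ligands of ALK1, are encoded by Gdf2 and Bmp10: Gdf2 was at 0.01 TPM in pup 1 and 0.06 TPM in pup 3, with 1 and 5 counts in those pups, and Bmp10 had a count of 0 in both, which allows up to the CPM limits given above.

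Among type II receptors Tgfbr2 (chromosome 9, 116084293 to 116175360, minus strand), the receptor that binds TGF-beta first, had 75.5 TPM in pup 1 and 69.6 TPM in pup 3. Bmpr2, the BMP receptor whose loss causes pulmonary arterial hypertension, had 15.8 TPM in pup 1 and 19.6 TPM in pup 3. Acvr2a and Acvr2b, which bind activins and BMPs, had 12.5 and 9.25 TPM in pup 1, and 12.0 and 10.1 TPM in pup 3. Tgfbr2 was above Bmpr2 by 4.79 times in pup 1 and 3.55 times in pup 3, and no neighbours overlapped. The co-receptor gene Tgfbr3, which codes for betaglycan and presents TGF-beta 2 to its receptors, had 18.9 TPM in pup 1 and 19.0 TPM in pup 3.

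Receptor genes lay above ligand genes by 1.12 in pup 1 and 0.92 in pup 3 in mean log2(TPM + 1), or 1.02 ± 0.15 (SD, n = 2), and their summed TPM was 311 against 134 in pup 1 and 322 against 165 in pup 3. Type I receptors lay below type II receptors by this mean over genes, with a difference of -0.73 ± 0.020 (SD, n = 2). Their sums ran the other way, at 179 TPM for type I against 113 TPM for type II in pup 1 and 192 against 111 TPM in pup 3, with Acvrl1 holding most of the type I sum.

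Tgfbr2 also had 2 forms that differ by a coding exon, and it was 1 of 2 genes whose leading transcript was not the same in both pups. Tgfbr2-202 carries the exon as number 2 of 8, and Tgfbr2-201 lacks it. The form with the insert is known as the type II receptor B form, with extra residues in the part outside the cell. The exon has 75 bases, or 25 codons, at chr9:116158271-116158345 on the minus strand (GRCm38, GENCODE M21), which equals the difference between the 4785 and 4710 bases listed for these models in the deposited tables.
Tgfbr2 exon: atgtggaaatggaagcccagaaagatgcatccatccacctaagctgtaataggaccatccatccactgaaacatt
The form with the exon held 50.8% of the gene's abundance in pup 1 and 39.0% in pup 3. Its level was 38.3 TPM in pup 1, within deposited bounds of 34.4 and 42.2, and 27.2 TPM in pup 3, within bounds of 21.9 and 30.3, so that these bounds did not overlap. The form without it was at 37.2 TPM in pup 1 and 42.5 TPM in pup 3, with overlapping bounds. Within pup 1 the bounds of this form, 31.9 and 39.7, also overlapped those of the form with the exon, so neither form clearly led there. The later annotation gives both models other end points, at 8092 and 3476 bases, so the exon was placed from models that are not identical to those counted. The confidence level of the deposited bounds is not given in the sources used here. Bounds that did not overlap between the pups also occurred in transcripts of other members, such as Bmp3-201. Its bounds were 7.13 and 8.22 TPM in pup 1, and 10.9 and 12.3 TPM in pup 3. The share of such transcripts over all genes was not counted.

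The abundance of Acvrl1 was assigned to models with more than 1 annotated start. Of it, 67.6% in pup 1 and 62.4% in pup 3 was assigned to models that begin at the downstream start, almost all of it to Acvrl1-205. The upstream group of models, whose starts lie within 1000 bases of their neighbours, held 30.2% in pup 1 and 35.0% in pup 3. The models at the downstream start came first in both pups. Starts here and below are those of the annotated models, and no start was measured directly.

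The Smad genes were expressed within a narrow band, apart from Smad9. Smad1, which carries BMP signals, had 19.4 TPM in pup 1 and 20.5 TPM in pup 3. Smad5, its close relative, had 14.6 TPM in pup 1 and 14.9 TPM in pup 3. Smad9, the third of this branch, had 1.52 TPM in pup 1 and 1.26 TPM in pup 3. Smad9 was lower than Smad1 by 12.8 times in pup 1 and 16.3 times in pup 3, so most BMP-branch Smad transcripts were Smad1 and Smad5.

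In the TGF-beta branch Smad2 had 22.9 TPM in pup 1 and 27.1 TPM in pup 3. Smad3, the member that binds DNA directly in its main form, had 10.4 TPM in pup 1 and 10.9 TPM in pup 3, so Smad2 was above it by 2.21 times in pup 1 and 2.48 times in pup 3. Smad4, the shared partner of both branches, had 18.9 TPM in pup 1 and 19.7 TPM in pup 3. The inhibitory Smads, which bind active receptors and are themselves induced by the pathway, were close to Smad3: Smad6 had 11.8 TPM in pup 1 and 13.5 TPM in pup 3, and Smad7 had 10.0 and 9.55 TPM in those pups.

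The BMP-branch Smads lay below the TGF-beta-branch Smads by 0.83 in pup 1 and 0.99 in pup 3 in mean log2(TPM + 1), a difference of -0.91 ± 0.12 (SD, n = 2). Their sums were nearly equal, at 35.5 TPM for the BMP branch against 33.2 TPM for the TGF-beta branch in pup 1 and 36.7 against 38.0 TPM in pup 3. Smad9, at under 2 TPM, counts as much as the other members in the mean over genes, and the summed comparison did not have the same sign in both pups.

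All latency genes were well expressed. Latent TGF-beta binding proteins (LTBPs) 1, 3 and 4 bind the latent ligand and anchor it to the matrix, and LTBP2 takes part in microfibrils without binding latent TGF-beta. Ltbp4 (chromosome 7, 27305136 to 27337692, minus strand), whose loss in mice gives enlarged air spaces, had 90.5 TPM in pup 1 and 87.9 TPM in pup 3. Ltbp3 had 23.4 TPM in pup 1 and 24.1 TPM in pup 3, and Ltbp1 had 23.8 and 21.3 TPM in those pups. Ltbp2 had 19.7 TPM in pup 1 and 23.4 TPM in pup 3. Ltbp4 was above Ltbp1 by 3.81 times in pup 1 and 4.13 times in pup 3, whereas the ranges of Ltbp3 and Ltbp1, and of Ltbp1 and Ltbp2, overlapped and their order was not fixed.

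Ltbp1 and Ltbp4 each have a long form from an upstream start and a short form from a downstream one, and up to 250 bases before these starts are shown because the abundance assigned to their models was uneven. The sequences come from RefSeq (GRCm38.p6), in lower case, 5′ to 3′ on the gene's strand. Capitals mark GGCGCC, a GC-rich element that BMP-branch Smads can bind. The windows are chr17:75005279-75005528 (plus strand) for the long and chr17:75178531-75178780 (plus) for the short form of Ltbp1, and chr7:27337693-27337862 (minus) for the long and chr7:27333664-27333913 (minus) for the short form of Ltbp4. The window of the long form of Ltbp4 has 170 bases, since 80 bases before the RefSeq start lie inside the counted model and were left out.
Ltbp1 long: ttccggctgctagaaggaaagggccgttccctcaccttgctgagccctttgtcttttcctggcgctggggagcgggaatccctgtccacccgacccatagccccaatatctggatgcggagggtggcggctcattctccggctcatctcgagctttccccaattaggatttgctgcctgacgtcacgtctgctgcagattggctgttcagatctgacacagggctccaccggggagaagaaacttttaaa
Ltbp1 short: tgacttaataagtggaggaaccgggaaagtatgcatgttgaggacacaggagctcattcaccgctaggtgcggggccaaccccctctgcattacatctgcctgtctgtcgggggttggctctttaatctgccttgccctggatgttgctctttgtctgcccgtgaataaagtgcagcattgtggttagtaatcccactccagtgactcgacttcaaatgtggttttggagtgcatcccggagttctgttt
Ltbp4 long: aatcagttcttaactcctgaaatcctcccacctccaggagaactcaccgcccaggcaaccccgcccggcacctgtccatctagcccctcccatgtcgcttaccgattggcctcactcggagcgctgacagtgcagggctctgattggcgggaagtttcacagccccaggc
Ltbp4 short: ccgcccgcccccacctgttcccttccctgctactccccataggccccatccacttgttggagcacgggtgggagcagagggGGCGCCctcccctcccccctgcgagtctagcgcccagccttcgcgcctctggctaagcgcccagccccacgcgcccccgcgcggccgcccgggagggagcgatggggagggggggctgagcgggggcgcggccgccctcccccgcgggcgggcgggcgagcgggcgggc
The short start of Ltbp4 had a window of 79.2% G and C, against 60.6% for its long start, 56.8% for the long and 50.8% for the short start of Ltbp1, and a median of 52.4% over all 32851 RefSeq windows.

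The short form led in both genes. In Ltbp4 the models at the short start held 69.4% of the abundance in pup 1 and 74.4% in pup 3, and the long form Ltbp4-201 held 0.93% in pup 1 and 0.89% in pup 3, at 0.84 and 0.78 TPM in those pups. Most of the remainder was the short retained-intron model Ltbp4-208, with 27.9% in pup 1 and 23.0% in pup 3, although it took only 367 of 10673 counts in pup 1 and 250 of 9376 in pup 3. In Ltbp1 the models at the short start held 58.8% in pup 1 and 61.6% in pup 3, and the group at the long start held 25.3% and 23.1% in those pups. That group includes Ltbp1-207, a model of 519 bases without a protein-coding annotation, with 7.07% in pup 1 and 2.94% in pup 3. Ltbp1-201 alone held 18.3% in pup 1 and 20.2% in pup 3. The long form Ltbp1-201 stood at 4.34 TPM in pup 1 and 4.29 TPM in pup 3, so the long form of Ltbp1 was above that of Ltbp4 in both pups.

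Over the 40 RefSeq windows of 32 of the 45 genes, GGCGCC, which reads the same on both strands, was present in 9, against 9.59% of all 32851 windows. These 9 windows belong to Bmpr1a, Bmpr2, Chrd, Grem1, Ltbp4, Smad5, Smad9 and Tgfbr1, with 2 overlapping windows in Ltbp4. The Smad element GTCTAGAC, also its own reverse complement, was in 0 of the 40 windows and 0.167% of all windows. The TATA motif TATAAA, searched on both strands, was in 4 of 40 against 12.4% of all. The 40 windows were rich in G and C, with a median of 66.6%, and GGCGCC consists only of these bases, so its share was not compared at equal base composition.

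Antagonist genes lay far apart in level. Fstl1, a secreted glycoprotein that binds BMP4 and is needed for lung formation in mice, had 274 TPM in pup 1 and 301 TPM in pup 3. Fstl3, which binds activin, had 35.2 TPM in pup 1 and 34.3 TPM in pup 3. Bambi, a receptor-like protein without a kinase that damps signalling, had 17.7 TPM in pup 1 and 15.7 TPM in pup 3. Fstl1 made up 82.7% of the role's summed TPM in pup 1 and 84.7% in pup 3, and stood 7.79 times above Fstl3 in pup 1 and 8.80 times in pup 3.

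The genes of the classical secreted BMP antagonists chordin, noggin and gremlin 1 were among the lowest of the 45 genes. Chrd, which codes for chordin, had 1.31 TPM in pup 1 and 1.34 TPM in pup 3. Nog, which codes for noggin, had 0.76 TPM in pup 1 and 0.84 TPM in pup 3, from 39 and 37 counts. Grem1, which codes for gremlin 1, had 0.11 TPM in pup 1 and 0.19 TPM in pup 3, from 15 and 21 counts. Fst, which codes for follistatin and traps activin, had 2.40 TPM in pup 1 and 1.90 TPM in pup 3. These 4 and the other 3 antagonists did not overlap in range with any neighbour.

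In mean log2(TPM + 1) the 7 antagonists were above the 7 BMP-type ligands by 0.28 in pup 1 and below them by 0.036 in pup 3, a mean difference of 0.12 ± 0.22 (SD, n = 2) that is smaller than the spread between the pups. The summed antagonists exceeded the summed BMP-type ligands, at 332 against 60.5 TPM in pup 1 and 356 against 78.5 TPM in pup 3, with most of that sum in Fstl1. These sets are not matched, since Fst and Fstl3 bind activin and Bmp3 counteracts other BMPs. As in Tgfb2, models of Fstl1 without a protein-coding annotation held 28.9% of its TPM but 7.77% of its counts in pup 1, and 31.9% and 8.90% in pup 3. Its protein-coding model alone had 195 TPM in pup 1 and 205 TPM in pup 3, still the highest antagonist.

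The target genes Id3 and Id1 code for inhibitors of DNA binding that BMP signals induce in many cells. Id3 (chromosome 4, 136143497 to 136145755) was the highest of the 45 genes, with 420 TPM in pup 1 and 380 TPM in pup 3. It ranked 296 among 21474 protein-coding genes by mean TPM. Id1 had 189 TPM in pup 1 and 193 TPM in pup 3, at rank 696. Id3 was above Id1 by 2.23 times in pup 1 and 1.97 times in pup 3. Fstl1 ranked 451 and Acvrl1 ranked 933.

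**Figure D3:**
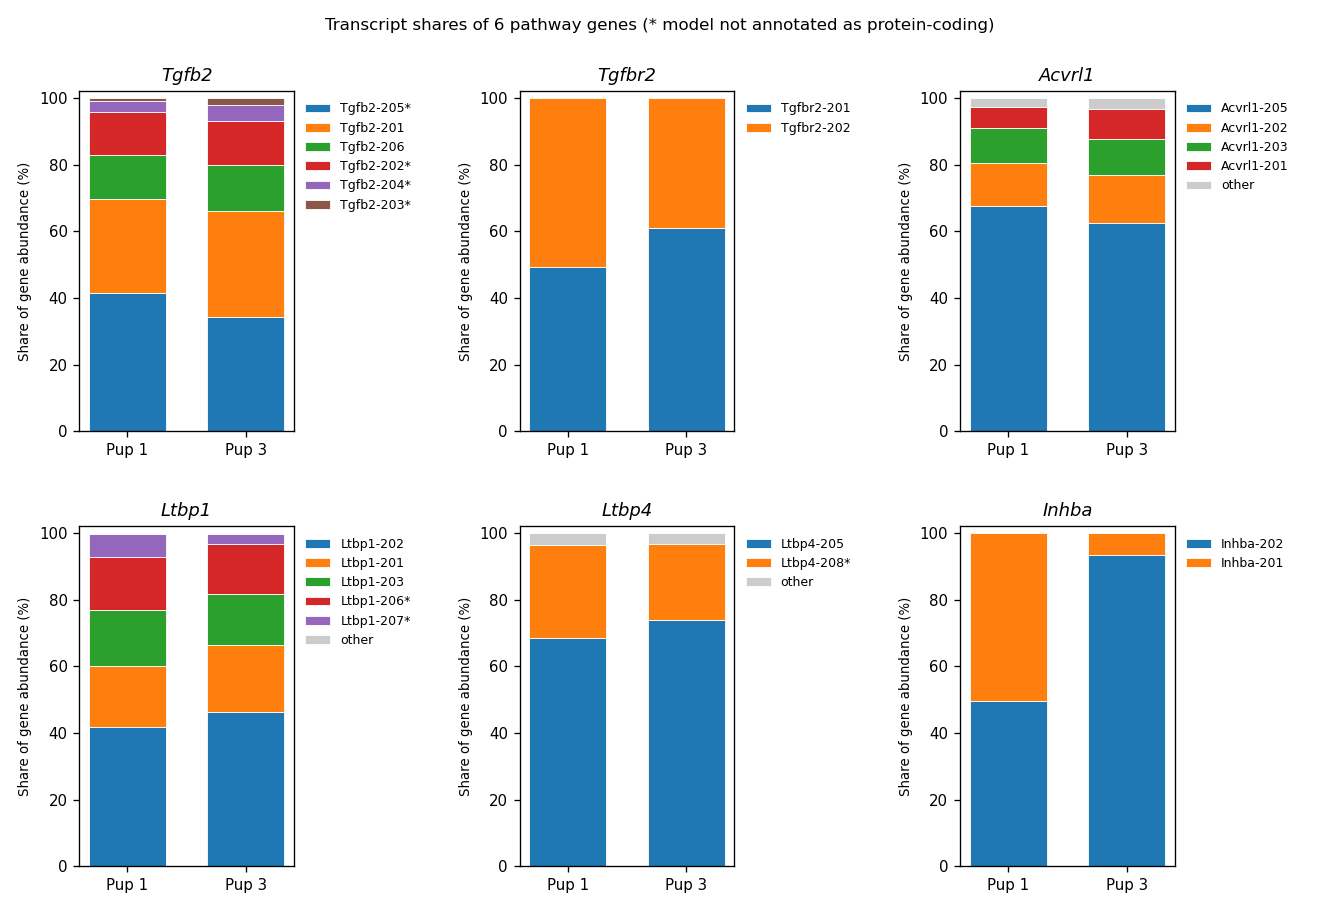
Share of each gene's abundance (percent, deposited) held by its transcripts in pup 1 (left bar) and pup 3 (right bar) for 6 genes, with models under 2% in both pups pooled as other and models not annotated as protein-coding starred. The bars of Inhba and Tgfbr2 change their leading transcript between the pups, with nearly equal shares in pup 1. Ltbp4-205, Ltbp1-202, Acvrl1-205 and Tgfb2-205 lead in both pups.

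The leading transcript was the same in both pups in most of the 45 genes that could be compared. Of the 31 genes with at least 2 transcripts and 50 counts over both pups, 29 had the same leading transcript in both. In 26 it held over 50% in both pups, and in 15 it held over 90%. The exceptions were Tgfbr2, described above, and Inhba. Inhba-201 held 50.5% in pup 1 and 6.51% in pup 3, and Inhba-202 held 49.5% in pup 1 and 93.5% in pup 3. These shares rest on 55 counts of the gene in pup 1 and 89 in pup 3. In pup 1 the deposited TPM bounds of Inhba-201 and Inhba-202 overlapped, so neither clearly led there. The genes described by transcript were chosen after their shares had been seen. How often all genes keep their leading transcript was not counted, so 29 of 31 has no background beside it.

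The pups were also set against each other. The rule for a difference asked for a ratio of scaled counts, pup 1 over pup 3, of 2-fold or more in either direction, 50 or more counts in both pups together, and a 95% interval of the ratio (exact binomial) that left out 1. This sets 1 library against 1, so there is no replicate check and no p-value, and intervals cover counting error only. None of the 44 genes tested differed, while 221 of all 15790 genes tested did (1.4%), a share so low that a count of 0 among 44 genes says little about the pathway. Grem1 had too few counts. The median log2 ratio was -0.0014 over the 44 genes and 0.0054 over all genes, and the median absolute log2 ratio was 0.110 over the 44 genes and 0.144 over all genes.

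At 1.5-fold, 1 of the 44 genes passed, against 5.06% of all genes in either direction and 2.78% in the direction of lower in pup 1. This was Inhba, with 55 counts in pup 1 and 89 in pup 3, a log2 ratio of -0.84 and an interval of the ratio between 0.391 and 0.789. Next came Bmp3, with 758 counts in pup 1 and 981 in pup 3 and a log2 ratio of -0.52, then Fst with 173 and 117 counts and 0.41. Smad9 followed with 258 counts in pup 1, 182 in pup 3 and a log2 ratio of 0.35, and Bmp4 with 1380 and 1588 counts and -0.35. The interval left out 1 in 12 genes lower in pup 1, against 21.6% of all genes, and in 10 genes higher in pup 1, against 24.6% of all genes.

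**Figure D4:**
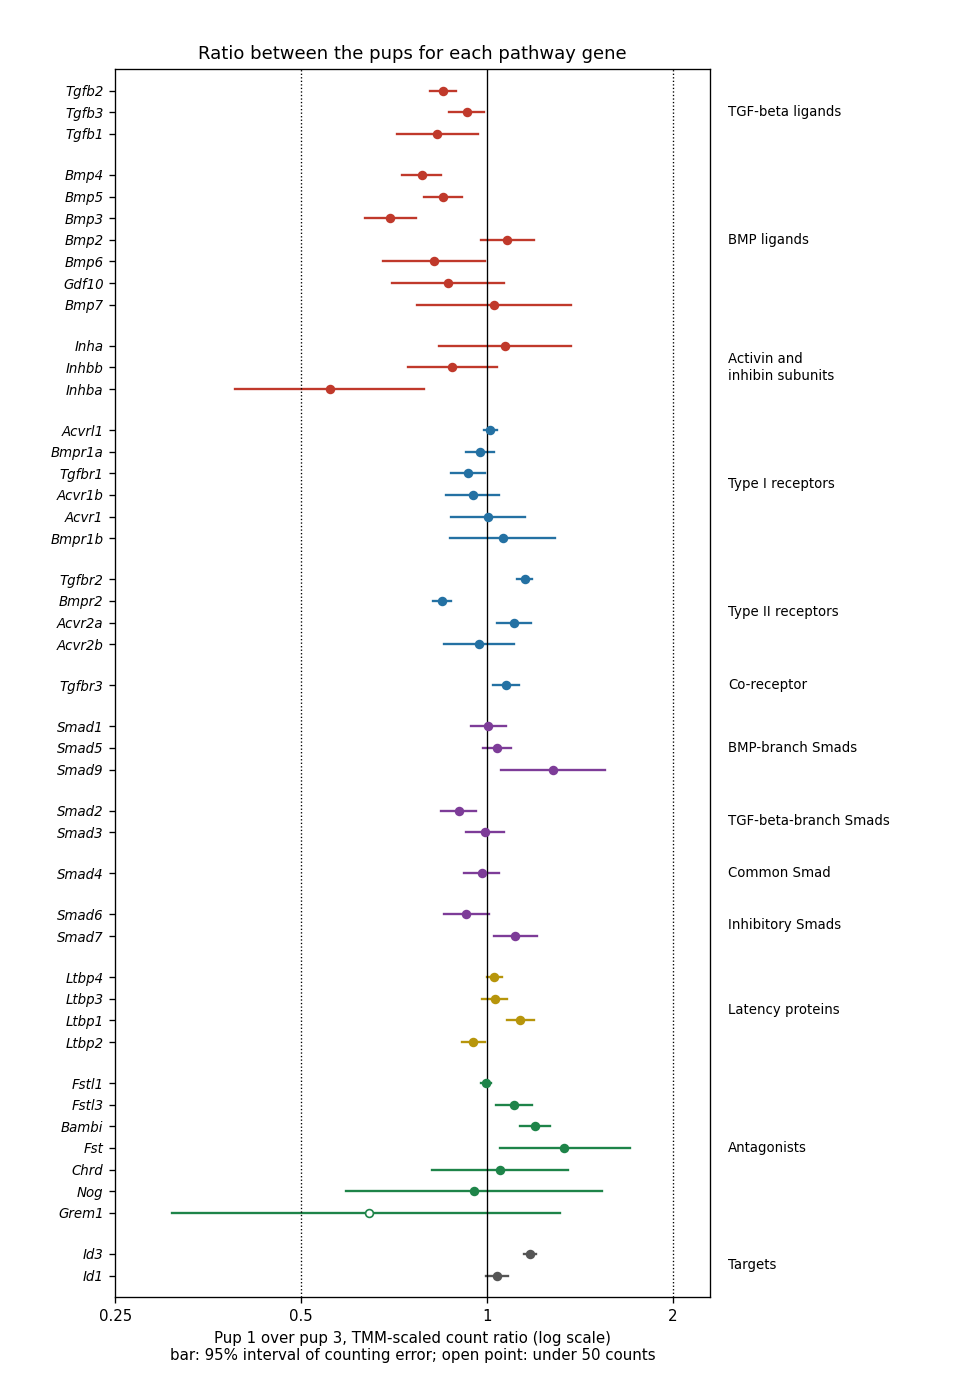
Ratio of TMM-scaled counts, pup 1 over pup 3, for each of the 45 genes on a log axis, with bars for the 95% interval of counting error, colours for the role classes, dotted lines at 0.5 and 2 and an open point for Grem1, which had under 50 counts. The points of all tested genes lie between the dotted lines, and 10 of the 13 ligand genes lie left of 1.

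Most ligand genes had a ratio below 1, although none passed the 2-fold rule. Of the 13, 10 were lower in pup 1 and 3 higher (Bmp2, Bmp7 and Inha), the intervals of 8 lay below 1 and of none above, and the median log2 ratio was -0.24, against 0.0054 over all genes. Over all genes tested, 49.0% were lower in pup 1, and intervals lay below 1 in 21.6% and above 1 in 24.6%. The members of the other roles were divided, with 5 of 11 receptor genes, 4 of 8 Smad genes, 1 of 4 latency genes, 2 of 6 antagonist genes tested and 0 of 2 target genes lower in pup 1. This class was singled out after its values had been seen, and it sets 1 library against 1. Scaling by the spike-in counts, 317 in pup 1 and 316 in pup 3, shifts all genes alike: the median of the ligands was then -0.092 and that of all genes 0.15, and 9 ligands were lower.

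Marker genes of other tissues and cell types also varied between the pups. The 4 markers of heart muscle (Myl7, Actc1, Tnnt2 and Myh6) were all detected, summed to 561 TPM in pup 1 and 644 TPM in pup 3, and 3 of the 4 were lower in pup 1, with a median log2 ratio of -0.27. The 3 mesenchymal markers (Col1a1, Tcf21 and Acta2) summed to 1379 TPM in pup 1 and 1288 TPM in pup 3 with a median of 0.19, and the 3 endothelial markers (Pecam1, Cdh5 and Cldn5) to 591 and 615 TPM in those pups with a median of 0.051. Liver markers summed to 6.44 TPM in pup 1 and 4.24 TPM in pup 3. Thymus markers summed to 0.22 TPM in pup 1 and 0.32 TPM in pup 3, and cartilage markers to 0.22 and 0.03 TPM, with Matn1 at a count of 0 in both pups. The part of these differences in the ligand levels was not tested.

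Among 64 further genes of the pathway, 37 reached 1 TPM in both pups and 25 were under it in both. None of the 44 with at least 50 counts passed the 2-fold rule, against 1.4% of all genes. Of 19 further ligand genes only Gdf5, Gdf11 and Gdf15 reached 1 TPM in both pups. Gdf5, a joint-forming ligand, was at 1.52 TPM in pup 1 and 2.43 TPM in pup 3. Gdf11 was at 1.39 TPM in pup 1 and 1.85 TPM in pup 3, and Gdf15, a stress-induced factor, was at 1.12 and 2.03 TPM in those pups. All 7 of the further ligands tested were lower in pup 1, with a median log2 ratio of -0.41. Over all genes tested, 49.0% were lower in pup 1 and the median was 0.0054. The intervals of Gdf5, Gdf11 and Gdf15 lay below 1, whereas those of the other further ligands tested included 1. Intervals lay below 1 in 21.6% of all genes tested.

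Of 7 further receptor and co-receptor genes 4 were detected. Eng, which codes for endoglin, the endothelial partner of ALK1, had 114 TPM in pup 1 and 104 TPM in pup 3. Rgmb, a BMP co-receptor, had 13.8 TPM in pup 1 and 13.1 TPM in pup 3, and Amhr2, the receptor of anti-Müllerian hormone, had 9.67 and 7.38 TPM in those pups. Eng stood below Acvrl1 in both pups.

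Of 10 genes that store or activate latent TGF-beta 9 were detected. Itgav, the alpha V integrin that pulls the ligand free, had 79.8 TPM in pup 1 and 83.4 TPM in pup 3. Thbs1, a matrix activator, had 44.7 TPM in pup 1 and 50.9 TPM in pup 3, and Nrros, which tethers latent TGF-beta on myeloid cells, had 27.9 and 38.2 TPM. Of the beta chains that pair with Itgav, Itgb6 had 16.8 TPM in pup 1 and 19.6 TPM in pup 3. Itgb8, another of these chains, was below 1 TPM at 0.76 TPM in both pups.

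Of 13 further antagonists 7 were detected, and these were led by Nbl1 with 124 TPM in pup 1 and 134 TPM in pup 3, Twsg1 with 75.9 and 81.6 TPM, and Bmper with 23.1 and 20.5 TPM. Twsg1 and Bmper code for secreted BMP-binding proteins that can block or aid BMPs, and Nbl1 for a relative of gremlin. Each of these 3 was above chordin, noggin and gremlin 1. All 8 regulators were detected, led by the co-repressor genes Tgif1 with 39.9 TPM in pup 1 and 41.5 TPM in pup 3, Skil with 21.8 and 26.2 TPM, and Ski with 19.9 and 20.6 TPM.

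The 3 highest of the further target genes were Id2, Tgfbi and Ccn2. Id2, a relative of Id1 and Id3, had 371 TPM in pup 1 and 404 TPM in pup 3, Tgfbi had 360 and 373 TPM, and Ccn2 had 62.0 and 48.2 TPM in those pups. The ranges of Id2 and Id3 overlapped.

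**Figure D5:**
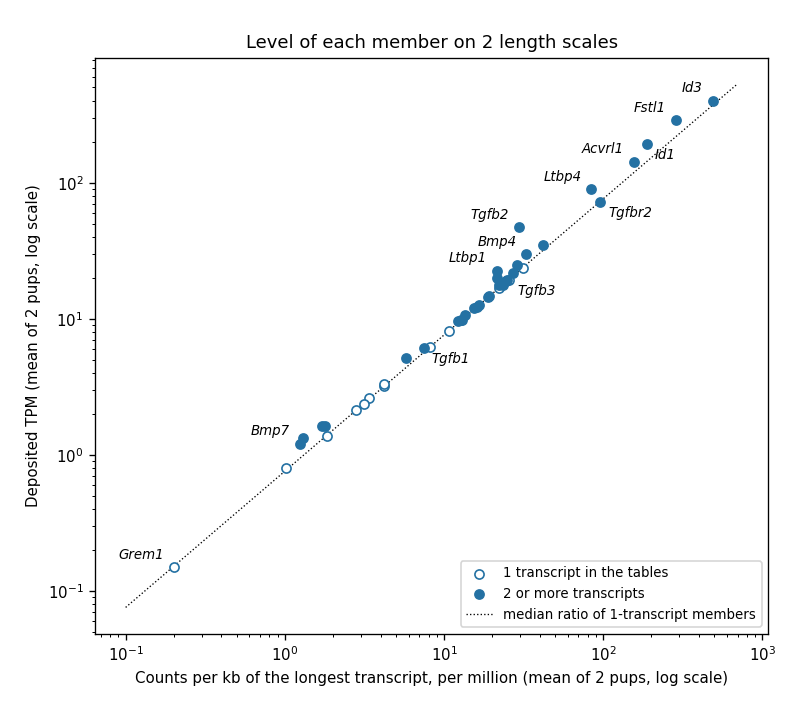
Deposited TPM against counts per kilobase of the longest transcript, scaled to 1000000, both as means of 2 pups on log axes, with open points for genes with 1 transcript and a dotted line at their median ratio. Tgfb2 lies farthest above the line.

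Levels per length depend on which transcript length is used. In the 14 genes with 1 transcript the deposited TPM was a median of 0.760 times the value per kilobase of the longest transcript, a factor shared by genes without alternative lengths. In Tgfb2 this ratio was 1.59, and it was the only gene above 1.5. On the longest-transcript scale Tgfb2 had 26.4 in pup 1 and 33.0 in pup 3, or 1.11 and 1.21 times the value of Tgfb3. The order of Acvrl1 over Tgfbr1, at 10.6 times in pup 1 and 9.72 times in pup 3, and of Ltbp4 over Ltbp1, at 3.76 and 4.14 times, held on that scale.

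Some counts cannot be assigned to 1 gene with certainty. Of the 45 genes, 38 had whole expected counts in both pups within 0.01, so few reads were split with other genes. In 15 genes exons overlap another gene, by up to 1878 bases in Bmp5, which faces Gm26903 on the opposite strand, and by 1157 bases in Fstl3, which faces Prss57. Whether counting used strand is not given in the sources used here, so the levels of these 15 genes may hold reads of their neighbours.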

How the data were processed

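The expected counts deposited by the authors are estimated counts per gene and transcript, and need not be whole. The deposited TPM divides these by effective length, per the file headers, and the deposited isoform percent gives each transcript's share of its gene's abundance. The lower and upper bounds beside them, and posterior mean values, are the authors' as well. The assembly mm10 and annotation M4 are named in the text deposited with the libraries. Neither aligner, counting program nor use of strand is given in the sources used here. Each library was made from 10 ng of RNA over 200 nt with spike-ins added, per the labels, which name Ambion mirVana extraction and a SMARTer manual.

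Names, coordinates and transcript types came from GENCODE M21 by identifier without version, and matched all 45 genes and their 152 transcripts. After rounding, counts were scaled by edgeR 4.0.16 (TMM, in R 4.3.3), with pup 1 at 1.11 times the size of pup 3. A prior count of 0.5 entered the log2 ratios, while intervals carry none. The size rule was tested on simulated data. Sequences were taken from GENCODE transcripts and RefSeq windows. The members, roles and gene lists were chosen with earlier results of these data known. By rule, values are given for the 3 highest members of each role, members under 1 TPM in both pups, members that differ and the 5 largest ratios. The remaining members were added to complete each role, and of the 65 further genes, 64 matched (Gdf1 did not). Gdf2, Bmp10, Itgb6, Itgb8 and Matn1 were named after their values were seen. Alternatives were DESeq2 1.42.0 size factors, total counts, spike-ins, no count minimum, 1.5-fold, posterior means, pseudocounts, sums, longest-transcript lengths, protein-coding models and each pup alone.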

Additional observations from a re-analysis of the deposited data

How the results depend on the processing

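With 1.5-fold in place of 2-fold, 1 gene differed between the pups instead of 0; the other 6 alternatives left 0. Spike-in scaling moved the median log2 ratio of the pathway to 0.14, a shift that all genes shared. That scaling rests on only 317 spike-in counts in pup 1 and 316 in pup 3, and its own counting error was not computed. The receptor over ligand difference stayed between 0.92 and 1.16 under all 8 alternatives. BMP-type minus TGF-beta ligands was -1.50 with log2(TPM + 0.1), -0.075 from sums, -1.05 on longest-transcript lengths and -0.97 over protein-coding models. Type I minus type II receptors was -0.85 with log2(TPM + 0.1), -0.87 on longest lengths and 0.73 from sums, a reversal. The BMP minus TGF-beta Smad difference was -1.10 with log2(TPM + 0.1) and 0.023 from sums, also a reversal. Antagonists minus BMP-type ligands turned to -0.25 with log2(TPM + 0.1), and was 1.13 without members under 1 TPM and 2.32 from sums; with each pup left out it ranged between -0.036 and 0.28. Between 37 and 44 genes were detected across 6 alternatives. The leading transcript was shared in 28 genes by posterior means. The protein-coding alternative and those on the ligand class, where 9 to 11 ligands were lower in pup 1, were added after seeing the data. For single genes, spike-in scaling moved 29 of 45 ratios and total counts 5, and longest-transcript length moved 39 of 45 levels and posterior means 5. A ratio counted as moved outside its interval of counting error, and a level when it changed by more than its SD. The change to longest lengths includes a shared factor, a median of 0.760 over the 14 genes with 1 transcript. No paired analysis was possible because the series holds 1 group. Depth limits Grem1, Nog, Inhba and Bmp7, which had under 100 counts in at least 1 pup.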
